A study of Mus musculus with 3 samples.

Results

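NMDA receptor subunits are encoded by a small gene family, and the level of 5-hydroxymethylcytosine (5hmC) over 6 of its members was examined in mouse cerebellum: Grin1, Grin2a, Grin2b, Grin2c, Grin2d and Grin3a. Each gene was represented by the 10 kb bins that overlap its RefSeq body by at least 1 bp, which gave 121 of the 262974 bins with a value in every library. Grin2b had 47 bins, Grin2a 44, Grin3a 19, Grin2d 5, and Grin1 and Grin2c 3 each. There were 3 groups of 1 library each: cerebellum after chronic sleep deprivation by DDD-seq, normal cerebellum by ACE-seq, and normal cerebellum by DDD-seq. DDD-seq (double-stranded DNA deamination sequencing) glycosylates 5hmC and then deaminates unprotected cytosines, so that the protected bases can be told from all others. ACE-seq, an APOBEC-coupled method, also protects 5hmC before deamination. Its entry repeats the protocol text of the DDD-seq libraries, and how this library was deaminated is not stated separately. Strain, age and number of the mice, the length of the sleep deprivation, and whether DNA was pooled are not given in the sources used here.

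NMDA receptors are ion channels, typically gated by glutamate together with glycine or D-serine, and depolarisation lifts a magnesium block that limits their current. Each channel holds the obligatory subunit GluN1, encoded by Grin1, with GluN2 subunits (Grin2a to Grin2d), which bind glutamate and set the kinetics, or GluN3 subunits, which bind glycine. In the rodent cerebellum, granule cells switch during maturation from GluN2B towards GluN2A and GluN2C. 5hmC is made from 5-methylcytosine by TET enzymes, is abundant in neurons, and in brain is commonly enriched over the bodies of active genes.

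Values are the deposited fraction of a bin multiplied by 100, here called the level, in percent. The table gives no coverage, so depth is unknown and counting error could not be set. It also gives no rate of failed deamination. How much of a level, above all a low one, is unprotected cytosine that escaped deamination is therefore unknown. A single library per group leaves no replicate error and no p-value, and each comparison is between libraries, not conditions. Standard errors (SE) were taken over the bins of a gene and describe scatter along the gene, not between mice. In whole tissue, a different share of cells of one type and a different level per cell cannot be told apart. The mean over all bins was 1.54% (sleep-deprived), 1.497% (ACE-seq) and 1.54% (DDD-seq control). The share of bins listed at 0 was 2.31% (sleep-deprived), 3.03% (ACE-seq) and 2.98% (DDD-seq control), and no body bin of a subunit gene was at 0.

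As a check of the tissue, 9 granule cell markers were listed, of which Grin2c was left out as a subunit gene. Of the others, Gabra6, Etv1, Kcnd2 and Grm4 had at least 3 bins. Their median was 4.70% (sleep-deprived), 4.004% (ACE-seq) and 4.18% (DDD-seq control). Grin2c itself had 1.21% (sleep-deprived), 1.06% (ACE-seq) and 1.30% (DDD-seq control). With it included, the middle marker would be Gabra6, with 4.14% (sleep-deprived), 2.87% (ACE-seq) and 2.99% (DDD-seq control). The medians of 11723 protein-coding genes of at least 3 bins were 1.42% (sleep-deprived), 1.39% (ACE-seq) and 1.43% (DDD-seq control). Those of the Purkinje cell, Bergmann glia and astrocyte, oligodendrocyte, microglia, endothelial and forebrain neuron markers, over 2 to 5 genes each, lay between 1.16% and 1.82% in every library. Single markers crossed these medians. Grm4 had 1.57% (sleep-deprived), 1.62% (ACE-seq) and 1.59% (DDD-seq control), whereas Plcb4 of Purkinje cells had 3.38% (sleep-deprived), 3.20% (ACE-seq) and 3.25% (DDD-seq control). Emcn of endothelial cells (2.79% to 2.89%) and St18 of oligodendrocytes (2.41% to 2.58%) were also above that range in every library. The microglial P2ry12 was above it in the sleep-deprived library (2.11%) and by ACE-seq (2.04%). The forebrain Prox1 was above it in the sleep-deprived library (2.03%) and the DDD-seq control (1.85%), and the astrocyte Slc1a2 in the DDD-seq control (1.85%). These are levels on DNA over marker genes, not expression.

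Promoter sequence from RefSeq (GRCm38.p6) was at hand for Grin1, Grin2c and Grin2d. It is shown for Grin1 and Grin2c because the start of each lies in 1 of only 3 bins of the gene. The sequences run 5′ to 3′ on the minus strand and end at the base next to the annotated body. Capitals mark every CG dinucleotide, the main site of cytosine methylation.
Grin1, chr2:25319188-25319437: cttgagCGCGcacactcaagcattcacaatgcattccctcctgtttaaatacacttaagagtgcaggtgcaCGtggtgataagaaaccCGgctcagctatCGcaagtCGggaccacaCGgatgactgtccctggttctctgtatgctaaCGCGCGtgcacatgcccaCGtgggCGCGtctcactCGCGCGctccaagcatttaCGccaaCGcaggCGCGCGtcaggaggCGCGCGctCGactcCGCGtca
Grin2c, chr11:115267298-115267493: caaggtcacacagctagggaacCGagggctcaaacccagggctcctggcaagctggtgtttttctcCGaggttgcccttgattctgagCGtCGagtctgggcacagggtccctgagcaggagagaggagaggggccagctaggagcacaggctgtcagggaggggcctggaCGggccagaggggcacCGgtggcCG
The Grin1 stretch of 250 bases held 27 CG and the Grin2c stretch of 196 bases held 7. In the whole windows of 300 bases around the start, CG (which reads the same on both strands) occurred 33 times at Grin1, 22 times at Grin2c and 12 times at Grin2d. The median of 32851 RefSeq promoter windows was 7, and 94.6% of them held at least 1 CG. At least as many CG as at Grin1 were found in 8.56% of windows, as at Grin2c in 23.1% and as at Grin2d in 39.6%. The starts of Grin2c and Grin2d in that table lie inside the annotated bodies. The Grin2c stretch therefore ends upstream of its start by the part inside the body, which is not printed, and the Grin2d sequence is not shown.

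Grin2a had the highest level of the family in every library, and Grin2c and Grin2d the lowest. The order Grin2a, Grin2b, Grin3a, Grin1 was the same in all 3 libraries. Grin2a stood apart from the next gene, Grin2b, by 0.688 percentage points (sleep-deprived), 0.650 points (ACE-seq) and 0.732 points (DDD-seq control), which were gaps of 5.33 SE (sleep-deprived), 4.18 SE (ACE-seq) and 5.27 SE (DDD-seq control) over bins. Every other pair of neighbours in the order was less than 3 SE apart, and the largest of these gaps was 2.90 SE, between Grin1 and Grin2c by ACE-seq. Grin2c and Grin2d changed places between libraries and were separated by at most 1.67 SE.

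**Figure D1:**
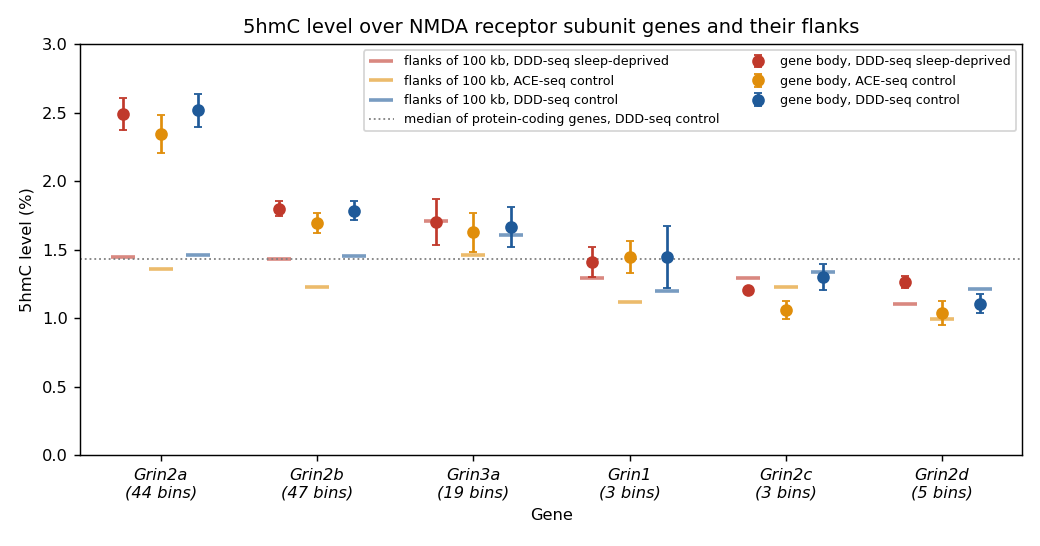
Gene-body 5hmC level (%, points, with SE over the gene's 10 kb bins) and level of the 100 kb flanks (dashes) for the 6 subunit genes in the 3 libraries, with the median of protein-coding genes as a dotted line. Grin2a lies between 2.34% and 2.52%, above its flanks in each library, whereas Grin2c lies below its flanks in each library.

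The obligatory subunit gene Grin1 (chromosome 2, 25291177 to 25319187) was near the middle of all genes. Its level was 1.41% ± 0.109 (SE over 3 bins) in the sleep-deprived library, 1.45% ± 0.116 in the ACE-seq control and 1.45% ± 0.229 in the DDD-seq control. It ranked at percentiles 48.5 (sleep-deprived), 55.7 (ACE-seq) and 51.2 (DDD-seq control) of protein-coding genes. Short genes were lower in general, and among the 3100 genes of 3 bins Grin1 was at percentiles 66.5 (sleep-deprived), 70.3 (ACE-seq) and 67.8 (DDD-seq control). The bin with the transcription start, 25310001 to 25320000, had 1.61% (sleep-deprived), 1.53% (ACE-seq) and 1.83% (DDD-seq control). It was the highest bin of the gene in both DDD-seq libraries, and holds the CG-dense promoter shown above. The middle bin had 1.38% (sleep-deprived), 1.59% (ACE-seq) and 1.04% (DDD-seq control). The remaining bin, which also holds part of Lrrc26, had 1.24% (sleep-deprived), 1.22% (ACE-seq) and 1.46% (DDD-seq control). Grin1 sits among other genes, and 17 of its 20 flank bins overlap another protein-coding gene. The RNA gene Grin1os, named as its opposite-strand transcript, lies within the body, and the table gives no strand.

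Among the genes of glutamate-binding subunits, Grin2a (chromosome 16, 9567901 to 9996083), encoding GluN2A of mature granule cells, was the highest. Its level was 2.49% ± 0.117 (SE over 44 bins) in the sleep-deprived library, 2.34% ± 0.138 in the ACE-seq control and 2.52% ± 0.121 in the DDD-seq control. It ranked at percentiles 92.4 (sleep-deprived), 90.8 (ACE-seq) and 92.3 (DDD-seq control) of all protein-coding genes. Long genes were higher in general, and the median of 229 genes of 36 to 52 bins was 1.79% (sleep-deprived), 1.74% (ACE-seq) and 1.82% (DDD-seq control). Among these Grin2a was at percentiles 80.8 (sleep-deprived), 79.5 (ACE-seq) and 82.5 (DDD-seq control), so that it remained in the upper part of genes of its length. The 2 genes of similar length nearest to it in the DDD-seq control were Dach1 with 2.52% and Gphn, encoding the inhibitory-synapse scaffold gephyrin, with 2.53%.

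Grin2b (chromosome 6, 135713221 to 136173615), whose GluN2B subunit marks immature granule cells, is about as long as Grin2a but was lower. Its level was 1.80% ± 0.055 (SE over 47 bins) in the sleep-deprived library, 1.69% ± 0.072 in the ACE-seq control and 1.78% ± 0.069 in the DDD-seq control. Ranked among all genes it was at percentiles 76.8 (sleep-deprived), 72.8 (ACE-seq) and 75.2 (DDD-seq control). Among 219 genes of 38 to 56 bins it was at percentiles 51.1 (sleep-deprived), 48.9 (ACE-seq) and 49.3 (DDD-seq control), the middle for its length. Its nearest neighbours in level among genes of similar length in the DDD-seq control were Agap1 with 1.79% and Fam172a with 1.77%.

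Grin2c (chromosome 11, 115249169 to 115267297), which in rodents encodes a subunit of mature granule cells, was low. Its level was 1.21% ± 0.023 (SE over 3 bins) in the sleep-deprived library, 1.06% ± 0.066 in the ACE-seq control and 1.30% ± 0.096 in the DDD-seq control. It ranked at percentiles 22.1 (sleep-deprived), 12.2 (ACE-seq) and 34.1 (DDD-seq control) of all genes. Against genes of 3 bins it was at percentile 36.0 (sleep-deprived) and 21.8 (ACE-seq), and at their median of 1.302% in the DDD-seq control. Unlike Grin2a, the other GluN2 gene of mature granule cells, it was not above the middle of genes of its length. The bin towards lower coordinates, which also holds part of Tmem104, had 1.246% (sleep-deprived), 1.19% (ACE-seq) and 1.49% (DDD-seq control). It was the highest in every library, but only 832 bp of it lie in Grin2c. The middle bin, the sole bin wholly inside the gene, had 1.17% (sleep-deprived), 0.994% (ACE-seq) and 1.21% (DDD-seq control). The bin with the promoter shown above, which also holds part of Fdxr, had 1.21% (sleep-deprived), 1.002% (ACE-seq) and 1.20% (DDD-seq control). All 20 flank bins overlap a protein-coding gene.

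Grin2d (chromosome 7, 45831883 to 45871194), whose subunit GluN2D gives slowly deactivating channels, was the lowest of the family in both controls. Its level was 1.26% ± 0.044 (SE over 5 bins) in the sleep-deprived library, 1.04% ± 0.088 in the ACE-seq control and 1.11% ± 0.068 in the DDD-seq control. It ranked at percentiles 29.2 (sleep-deprived), 10.2 (ACE-seq) and 12.1 (DDD-seq control) of all genes. Among the 1253 genes of 5 bins it was at percentiles 32.9 (sleep-deprived), 11.5 (ACE-seq) and 13.6 (DDD-seq control). Its 5 bins, towards higher coordinates, had 1.19%, 1.29%, 1.42%, 1.21% and 1.20% in the sleep-deprived library. They had 1.20%, 1.04%, 0.856%, 1.26% and 0.820% by ACE-seq, and 1.245%, 1.06%, 0.906%, 1.04% and 1.27% in the DDD-seq control. The first bin also holds part of Grwd1 and the last part of Kdelr1. The middle bin was the highest of the gene in the sleep-deprived library and the lowest in the DDD-seq control.

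Grin3a (chromosome 4, 49661611 to 49846023) encodes GluN3A, a glycine-binding subunit that lowers calcium entry and is known from developing brain. Its level was 1.70% ± 0.170 (SE over 19 bins) in the sleep-deprived library, 1.63% ± 0.139 in the ACE-seq control and 1.66% ± 0.146 in the DDD-seq control. It ranked at percentiles 72.1 (sleep-deprived), 69.2 (ACE-seq) and 68.9 (DDD-seq control) of all genes, and among 616 genes of 16 to 22 bins at 55.5 (sleep-deprived), 50.8 (ACE-seq) and 50.8 (DDD-seq control). Grin3a was thus near the middle for its length, as Grin2b was. The nested gene Ppp3r2 shares 2 of its bins. Grin3b, the other GluN3 gene, is not among the 6 genes and spans a single bin, which had 1.16% (sleep-deprived), 0.842% (ACE-seq) and 1.03% (DDD-seq control).

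Whether the signal followed the gene was asked by setting each body against the 100 kb on either side. Grin2a had a clear step. Its flanks had 1.45% (sleep-deprived), 1.36% (ACE-seq) and 1.46% (DDD-seq control), so that the body stood at 1.72 times (sleep-deprived), 1.73 times (ACE-seq) and 1.72 times (DDD-seq control) its flanks. Of its 44 bins, 39 in the sleep-deprived library and 40 in each control exceeded the mean of the flanks. The step was present on both sides. The flank towards lower coordinates had 1.41% (sleep-deprived), 1.37% (ACE-seq) and 1.47% (DDD-seq control), and that towards higher coordinates had 1.48% (sleep-deprived), 1.35% (ACE-seq) and 1.46% (DDD-seq control). No other protein-coding gene lies in the flanks of Grin2a or Grin2b.

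At Grin2b the flanks had 1.43% (sleep-deprived), 1.23% (ACE-seq) and 1.45% (DDD-seq control), and the body 1.26 times (sleep-deprived), 1.38 times (ACE-seq) and 1.23 times (DDD-seq control) that level. The step was smaller than at Grin2a in each library, with 39 (sleep-deprived), 39 (ACE-seq) and 37 (DDD-seq control) of 47 bins above the flank mean. At Grin1 the ratio of body to flanks was 1.09 (sleep-deprived), 1.30 (ACE-seq) and 1.21 (DDD-seq control). Against its 3 flank bins free of genes, the body of Grin1 stood at a difference of -0.212 points (sleep-deprived), -0.025 points (ACE-seq) and 0.036 points (DDD-seq control), so that the direction depended on which flank bins were used. At Grin3a the ratio was 0.996 (sleep-deprived), 1.11 (ACE-seq) and 1.03 (DDD-seq control), with uneven flanks. With flanks of 50 kb it was 1.26 (sleep-deprived), 1.14 (ACE-seq) and 1.16 (DDD-seq control), so that in the sleep-deprived library the direction and the 25% threshold turned on flank size. The side of Grin3a towards lower coordinates had 1.35% (sleep-deprived), 1.27% (ACE-seq) and 1.34% (DDD-seq control), and the other side 2.07% (sleep-deprived), 1.66% (ACE-seq) and 1.88% (DDD-seq control). Both short GluN2 genes lay near their gene-dense flanks, with ratios of 0.932 (sleep-deprived), 0.866 (ACE-seq) and 0.975 (DDD-seq control) at Grin2c and 1.14 (sleep-deprived), 1.04 (ACE-seq) and 0.914 (DDD-seq control) at Grin2d.

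A body at least 25% above its flanks was found for 2 of the 6 genes in the sleep-deprived library, for 3 by ACE-seq and for 1 in the DDD-seq control. Among all protein-coding genes the share was 23.9% (sleep-deprived), 26.2% (ACE-seq) and 25.2% (DDD-seq control). In this setting only Grin2a passed in every library. Grin2b also did so with bins wholly inside the body, at 1.27 (sleep-deprived), 1.39 (ACE-seq) and 1.251 (DDD-seq control), and with flanks of 200 kb, at 1.31 (sleep-deprived), 1.37 (ACE-seq) and 1.295 (DDD-seq control). Of the 229 genes of about the length of Grin2a, 49.8% (sleep-deprived), 49.3% (ACE-seq) and 48.9% (DDD-seq control) passed. A step of at least 25% was therefore common among long genes.

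Along Grin2a the coefficient of variation over bins was 0.311 (sleep-deprived), 0.390 (ACE-seq) and 0.318 (DDD-seq control). Of the 229 genes of like length, 36.2% (sleep-deprived), 60.3% (ACE-seq) and 33.6% (DDD-seq control) had a smaller one, so that Grin2a was not unusually uneven. The long genes were divided along their length into 3 stretches of nearly equal bin number. In the stretch of Grin2a at higher coordinates (14 bins) the level was 2.80% ± 0.215 (sleep-deprived), 2.62% ± 0.277 (ACE-seq) and 2.996% ± 0.204 (DDD-seq control), with SE over bins. In that at lower coordinates (15 bins) it was 2.15% ± 0.186 (sleep-deprived), 2.17% ± 0.231 (ACE-seq) and 2.14% ± 0.178 (DDD-seq control). The stretch between them had 2.53% (sleep-deprived), 2.26% (ACE-seq) and 2.44% (DDD-seq control). The end at higher coordinates was above the other end in each library, while by ACE-seq the middle stretch was within 1 SE of that at lower coordinates. The gap between the end stretches exceeded that of 80.3% (sleep-deprived), 65.9% (ACE-seq) and 86.5% (DDD-seq control) of the 229 genes of like length, and gradients of this size were therefore not rare.

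Bins in the top 10% of the genome in all 3 libraries numbered 12 of 44 in Grin2a, or 27.3%, against 4.79% of all bins and 9.07% of bins that overlap a protein-coding gene. Grin2a had a larger share of such bins than 81.7% of genes of its length. The highest bin by its mean was 9920001 to 9930000, with 3.49% (sleep-deprived), 4.23% (ACE-seq) and 4.55% (DDD-seq control). Next was 9870001 to 9880000, with 3.38% (sleep-deprived), 4.04% (ACE-seq) and 3.61% (DDD-seq control). Both end bins were below the mean of the gene in every library. They lie only partly in the gene, with 2100 bp of the first bin and 6083 bp of the last. The last bin, 9990001 to 10000000, had 1.29% (sleep-deprived), 1.34% (ACE-seq) and 1.51% (DDD-seq control), and the first, 9560001 to 9570000, had 1.01% (sleep-deprived), 1.44% (ACE-seq) and 1.74% (DDD-seq control).

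Grin2b was flatter than most genes of its length. The coefficient of variation over its bins was 0.210 (sleep-deprived), 0.293 (ACE-seq) and 0.266 (DDD-seq control). Of the 219 genes of like length, 1.83% (sleep-deprived), 13.2% (ACE-seq) and 5.94% (DDD-seq control) had a smaller one. No bin of Grin2b was in the top 10% of all 3 libraries. Its stretch at lower coordinates had 1.72% (sleep-deprived), 1.55% (ACE-seq) and 1.66% (DDD-seq control), the middle one 1.88% (sleep-deprived), 1.77% (ACE-seq) and 1.88% (DDD-seq control), and that at higher coordinates 1.80% (sleep-deprived), 1.76% (ACE-seq) and 1.81% (DDD-seq control). The highest bin by its mean, 135970001 to 135980000, had 2.11% (sleep-deprived), 3.13% (ACE-seq) and 3.14% (DDD-seq control).

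In Grin3a the middle stretch was the highest. It had 2.48% ± 0.354 (sleep-deprived), 1.84% ± 0.380 (ACE-seq) and 1.83% ± 0.310 (DDD-seq control), with SE over 6 bins. The stretch at lower coordinates had 1.32% (sleep-deprived), 1.59% (ACE-seq) and 1.70% (DDD-seq control), and that at higher coordinates 1.37% (sleep-deprived), 1.46% (ACE-seq) and 1.45% (DDD-seq control). In both controls the middle stretch was within 1 SE of that at lower coordinates, and in the sleep-deprived library it was not. A single bin, 49740001 to 49750000, of the body was in the top 10% of every library, with 2.88% (sleep-deprived), 3.39% (ACE-seq) and 2.54% (DDD-seq control). A flank bin, 49910001 to 49920000, was higher by its mean, with 2.85% (sleep-deprived), 2.95% (ACE-seq) and 3.66% (DDD-seq control).

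**Figure D2:**
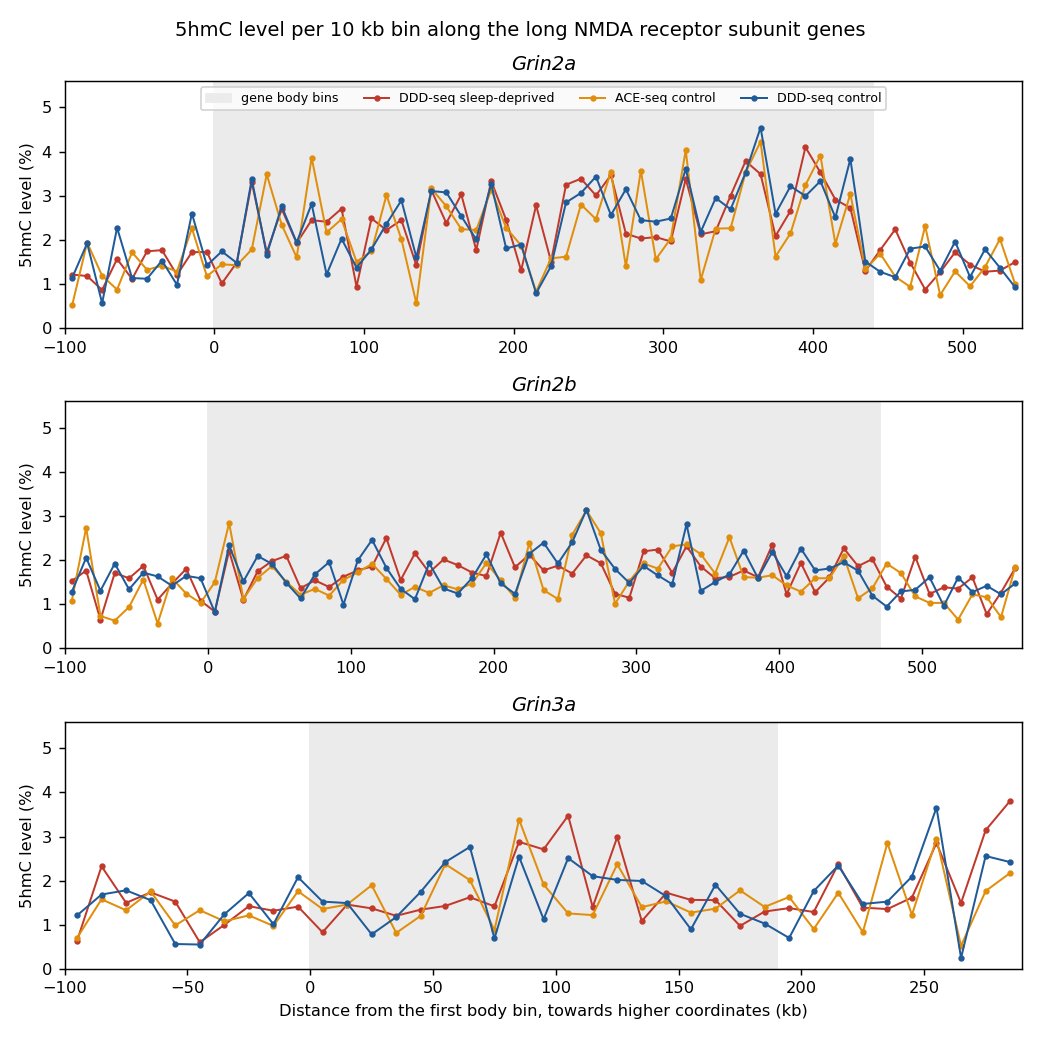
5hmC level (%) of each 10 kb bin along Grin2a, Grin2b and Grin3a and their 100 kb flanks, by distance from the first body bin, with 1 line per library and the body shaded. Grin2a is raised over most of its body and drops at both edges, where the end bins lie only partly in the gene. Grin2b varies less around its mean of 1.69% to 1.80%. By the mean of the 3 libraries, Grin3a has its highest body bins in the middle and a higher flank bin beyond its end at higher coordinates. In the DDD-seq control alone its highest body bin, with 2.76%, lies in the stretch at lower coordinates.

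Single bins repeated only in part between libraries. Across the 44 bins of Grin2a, Pearson's r with the DDD-seq control was 0.680 for the sleep-deprived library and 0.622 for ACE-seq. For the 47 bins of Grin2b it was 0.333 (sleep-deprived) and 0.538 (ACE-seq), and for the 19 bins of Grin3a 0.402 (sleep-deprived) and 0.474 (ACE-seq). The medians over genes of like length lay between 0.538 and 0.609. For the sleep-deprived library 16.9% of genes as long as Grin2b had a lower r than it. The bins of a gene are neighbours in the same libraries, so these values are descriptions. The median absolute difference of a bin between the sleep-deprived library and the DDD-seq control was 0.411 points in Grin2a, 0.345 in Grin2b and 0.667 in Grin3a. Between ACE-seq and the DDD-seq control it was 0.449 points in Grin2a, 0.252 in Grin2b and 0.530 in Grin3a.

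Chronic sleep deprivation was examined within DDD-seq, where the family had nearly the same levels in the sleep-deprived and the normal library. With all body bins counted, no gene differed by more than 1.5 SE over bins. This SE describes scatter along the gene, not error between libraries. Sleep-deprived minus control was -0.029 ± 0.095 points at Grin2a (19 of 44 bins higher), 0.015 ± 0.073 at Grin2b (23 of 47) and 0.037 ± 0.174 at Grin3a (10 of 19). It was -0.035 ± 0.184 points at Grin1 (1 of 3 bins higher) and -0.095 ± 0.078 at Grin2c (1 of 3). The largest difference was that of Grin2d, 0.156 ± 0.108 points, with 3 of 5 bins higher and a level above both controls. The short genes depended on their edge bins. With only bins wholly inside the body, the difference was 0.304 points at Grin2d (3 bins) and 0.334 points at Grin1 (1 bin).

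A ratio of at least 1.1 in either direction between these libraries was found for 1 of the 6 subunit genes, Grin2d, at 1.14, and for 42.0% of 11706 protein-coding genes (20.3% higher, 21.8% lower in the sleep-deprived library). The genes past the ratio changed with the setting. They were Grin1 at 1.32 and Grin2d at 1.30 with bins wholly inside the body, Grin2d at 1.14 and Grin3a at 0.868 with medians over bins, and 0 genes at the stricter ratio, which asks for 25%. The share of all genes went with gene length. It was 47.0% among genes of 5 bins, as Grin2d has, and 5.68% among genes as long as Grin2a. Among the 1253 genes of 5 bins, Grin2d's difference was at percentile 79.7, inside the central 95% of -0.463 to 0.442 points. Each of the other 5 genes also lay inside the central 95% of genes of its size. The median difference over the 6 genes was -0.007 points, with 3 higher and 3 lower, beside -0.004 points over all genes.

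At single bins, 6 of the 121 (4.96%) were higher by at least 1 point in the sleep-deprived library and 5 (4.13%) lower, against 5.47% and 5.31% of all bins. These shares are near the background. The largest of these differences was in Grin2a at 9770001 to 9780000, with 2.78% (sleep-deprived), 0.823% (ACE-seq) and 0.786% (DDD-seq control). In Grin3a it was at 49750001 to 49760000, with 2.71% (sleep-deprived), 1.91% (ACE-seq) and 1.12% (DDD-seq control). In Grin2b it was at 135910001 to 135920000, with 2.62% (sleep-deprived), 1.54% (ACE-seq) and 1.47% (DDD-seq control). In each of these bins the sleep-deprived library was above both controls, but the bins were picked for their differences and are given as values only.

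**Figure D3:**
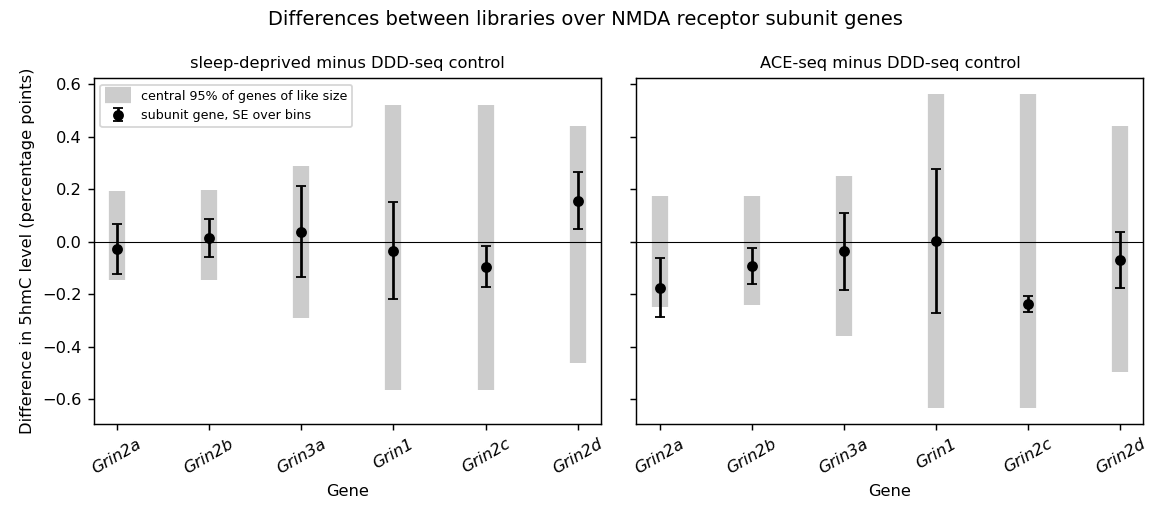
Difference in gene-body level (percentage points; points with SE over bins) of the sleep-deprived library minus the DDD-seq control (left) and of the ACE-seq minus the DDD-seq control (right), with the central 95% of protein-coding genes of like size in grey. All points of both panels lie inside the grey ranges, and Grin2c by ACE-seq is the furthest from 0, at -0.239 points.

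Both methods were compared on normal cerebellum, with ACE-seq set against DDD-seq. ACE-seq levels were the lower ones at 5 of the 6 genes, of which Grin3a turned to a difference of 0.0049 points with the libraries scaled to one mean. Most genes were also lower by ACE-seq, 6947 of 11723 with 4768 higher, and the median difference over all genes was -0.043 points. ACE-seq minus DDD-seq was -0.175 ± 0.113 points at Grin2a (17 of 44 bins higher), -0.092 ± 0.068 at Grin2b (22 of 47) and -0.038 ± 0.146 at Grin3a (8 of 19). It was -0.071 ± 0.108 points at Grin2d (1 of 5 bins higher) and 0.003 ± 0.274 at Grin1 (1 of 3). Grin2c differed most, by -0.239 ± 0.031 points, with all 3 bins lower by ACE-seq. With only bins wholly inside the body, the difference turned to 0.049 points at Grin2d and was 0.550 points in the 1 bin of Grin1.

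A ratio of at least 1.1 between mean levels was passed by 1 of the 6 genes, Grin2c, at 0.816, and by 47.6% of all genes (17.7% higher, 29.9% lower by ACE-seq). With medians over bins 4 passed, all lower by ACE-seq: Grin2c at 0.829, Grin3a at 0.855, Grin2a at 0.876 and Grin2b at 0.892. With bins wholly inside the body 2 passed, Grin1 at 1.53 and Grin2c at 0.822, and at the stricter ratio, which asks for 25%, 0 did. Among genes of 3 bins 60.3% passed, and Grin2c's difference was at percentile 20.8 of them. Grin2a's ratio of means was 0.930 and its difference was at percentile 9.61 of genes of its length, of which 10.9% passed. At single bins, 4 of 121 (3.31%) were higher and 8 (6.61%) lower by at least 1 point by ACE-seq, against 5.73% and 6.88% of all bins, and 6 of the 8 were in Grin2a. This comparison and that of sleep deprivation share the DDD-seq control.

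The family was then set beside 10 AMPA, delta and kainate receptor genes, which encode other ionotropic glutamate receptors. The 6 NMDA receptor genes had a median of 1.56% (sleep-deprived), 1.54% (ACE-seq) and 1.55% (DDD-seq control), and the 10 other genes one of 1.48% (sleep-deprived), 1.45% (ACE-seq) and 1.42% (DDD-seq control). The medians were close, but Grik2, Gria4 and Gria2 reached further up. The remaining genes among these 10 were below Grin2a in every library. Grik2, a kainate receptor gene, had 4.94% (sleep-deprived), 5.05% (ACE-seq) and 5.02% (DDD-seq control). The AMPA receptor gene Gria4 had 4.49% (sleep-deprived), 4.42% (ACE-seq) and 4.38% (DDD-seq control), and Gria2, whose subunit limits calcium entry, had 5.08% (sleep-deprived), 4.62% (ACE-seq) and 4.07% (DDD-seq control). Of these 10 genes Gria2 and Grik5 were higher by the ratio of 1.1 in the sleep-deprived library than in the DDD-seq control, beside 20.3% of all genes, and Gria2 by ACE-seq, beside 17.7%. Neither 2 of 10 nor 1 of 10 was above the share of all genes. No NMDA receptor gene reached 3% in any library.

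Of the genes that act with NMDA receptors, 28 were listed (scaffolds, kinases, regulators, and enzymes and transporters of the co-agonists, with Grin3b), and 25 had at least 3 bins. Their median was 1.44% (sleep-deprived), 1.41% (ACE-seq) and 1.42% (DDD-seq control), near that of all genes. The highest was Camk2d, encoding the delta isoform of CaM kinase II, with 4.16% (sleep-deprived), 4.04% (ACE-seq) and 4.15% (DDD-seq control). Of the scaffold genes, Dlg1 (SAP97) had 3.55% (sleep-deprived), 3.51% (ACE-seq) and 3.67% (DDD-seq control), and Dlg2 (PSD-93) had 2.29% (sleep-deprived), 2.17% (ACE-seq) and 2.22% (DDD-seq control). Fyn, a Src-family kinase that phosphorylates GluN2 subunits, had 2.35% (sleep-deprived), 2.38% (ACE-seq) and 2.36% (DDD-seq control). At the other end of the list in the DDD-seq control were Dlg4 (PSD-95) with 1.42% (sleep-deprived), 1.57% (ACE-seq) and 1.09% (DDD-seq control), and Slc7a10, a transporter of D-serine, with 1.07% (sleep-deprived), 1.21% (ACE-seq) and 1.06% (DDD-seq control). Members of one family thus differed widely, as Dlg1 and Dlg4 show.

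Between the sleep-deprived library and the DDD-seq control, 9 of these 25 genes (36.0%) passed the ratio of 1.1, of which 4 were higher and 5 lower, beside 42.0% of all genes. The largest ratios were 1.31 at Dlg4, 0.831 at Ptpn5, a phosphatase that acts on GluN2B, 0.867 at the reelin receptor gene Lrp8 and 0.872 at the glycine transporter gene Slc6a9. Between ACE-seq and the DDD-seq control 6 of 25 (24.0%) passed, 2 higher and 4 lower, beside 47.6% of all genes. The largest ratios there were 1.44 at Dlg4, 0.779 at Lrp8, 0.820 at Slc6a9 and 0.879 at Camk2b, another CaM kinase II gene. Neither share was above that of all genes.

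**Figure D4:**
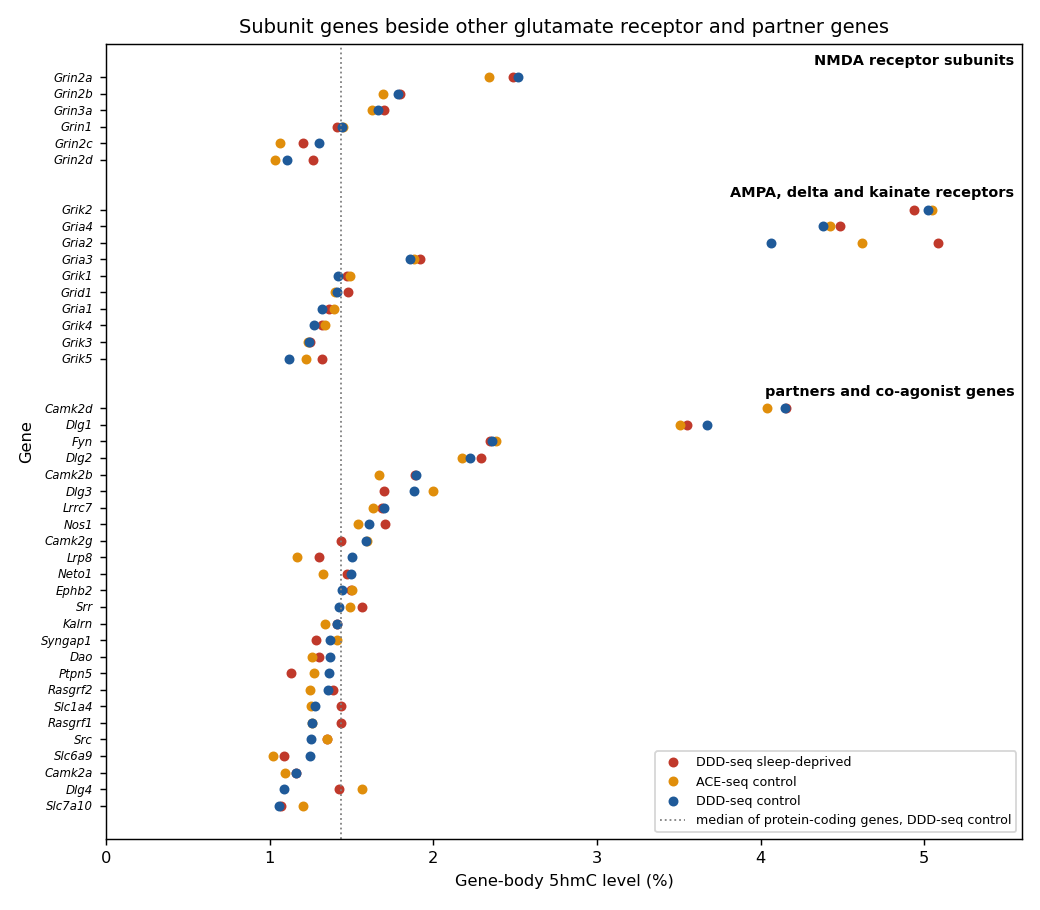
Gene-body 5hmC level (%) of the 6 NMDA receptor subunit genes, 10 other ionotropic glutamate receptor genes and the 25 partner and co-agonist genes, each with 1 point per library, ordered by the DDD-seq control within each group. The subunit genes span 1.04% to 2.52%, below the 4.07% or more of Grik2, Gria4 and Gria2.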

How the data were processed

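A total of 3 whole-tissue libraries of mouse cerebellum were used, 1 per group. FastQC, Trimmomatic and Bismark are named, per the submitters' processing notes. The deposited table holds a fraction from 0 to 1 per 10 kb bin, per the file headers and the values. Its averaging, cytosine contexts and coverage are not given in the sources used here. Both DDD-seq column names carry the word all, so runs may have been pooled. The notes name hg19, but the bins cover mouse chromosomes, and on each the last bin ended 1.33 to 211.9 kb after the last gene of RefSeq GRCm38.p6. The bins were therefore read as GRCm38.

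Fractions were multiplied by 100 and averaged over the bins of each of 21887 protein-coding genes, of which 11723 with at least 3 bins were ranked. Genes of like size have the same number of bins up to 5, and otherwise a number within 20%. Flanks were the 10 bins on either side. Ratios of 1.25 (body over flank) and 1.1 (between libraries) counted as called. No test was possible with 1 library per group. The gene summary was run on simulated bins with known rises planted in some genes. No rise as small as the ratio of 1.1 was planted, and the noise was not fitted to the spread between these libraries. That run therefore does not show how well a ratio of 1.1 is detected. Members, lists and thresholds were chosen with earlier results of these data known. All 6 members were named. Partner genes were named when they were the 4 highest or 2 lowest in the DDD-seq control or had the 4 largest ratios in a comparison. The 2 genes nearest in level to Grin2a and to Grin2b were taken from those within 5 bins of their size. Grik2, Gria4, Gria2 and Grik5 were named after their values were seen. Of the other receptor genes listed, 1 is not reported here. Alternatives covered which bins count, bins at 0, mean or median, library scale, flanks, ratios and gene size. Analyses used Python 3.11.15, numpy 2.4.6, pandas 2.3.3 and matplotlib 3.10.9.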

Additional observations from a re-analysis of the deposited data

How the results depend on the processing

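No paired analysis was possible because each group has 1 library, and no library could be left out. Depth is unknown, so its limits could not be set. Of 320 recomputed values, 275 moved by no more than their error (1 SE over bins, the SD over members for a median, or 1.5 times for a count). Many of these could not move, so the tally does not measure robustness. No body or flank bin was at 0, and scaling leaves DDD-seq control levels and ratios of body to flank as they were. The flanks of Grin2a and Grin2b hold no other protein-coding gene, so leaving out flank bins with genes changed nothing there. Of 56 differences between libraries, 8 changed sign.

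With only bins wholly inside the body, Grin1 had 1 bin left, with a level of 1.04% in the DDD-seq control, a body minus flank of -0.157 points, and differences of 0.334 (sleep-deprived minus control) and 0.550 points (ACE-seq minus DDD-seq). Grin2d had 3 bins left under this setting, and the same 3 with shared bins left out. Its level was then 1.004% in the DDD-seq control, its body minus flank -0.207 points, sleep-deprived minus control 0.304 points and ACE-seq minus DDD-seq 0.049 points. Against flank bins free of genes, Grin2d's body minus flank was -0.277 points in the DDD-seq control, and that of Grin1 by ACE-seq turned to -0.025 points. Genes with a step over their flanks then numbered 2 in the DDD-seq control with bins wholly inside, 2 there with flanks of 50 kb and 2 with flanks of 200 kb (flank widths were applied to this count after the data were seen, as were shared bins to all counts), 1 in the sleep-deprived library with medians, and, with the stricter ratio of 1.5, 1 by ACE-seq and 1 after sleep deprivation. Genes past the ratio between sleep-deprived and control were 0 with the stricter ratio, 2 with bins wholly inside and 2 with medians. Between ACE-seq and DDD-seq they were 0 with the stricter ratio, 2 with bins wholly inside and 4 with medians. With genes of at least 20 bins, only Grin2a and Grin2b were left, with a median of 2.14% (sleep-deprived) and 2.15% (DDD-seq control). Fewer bins were left by construction in the settings that drop bins, and the cause of the other changes was not tested. At Grin2a, no value moved beyond its error.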
